A study of Mus musculus with 2 samples.

Results

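The 10 genes described here write, remove or answer to DNA methylation and Polycomb marks, and were chosen by name: Dnmt1, Dnmt3a, Dnmt3b, Tet1, Tet2, Tet3, Asxl1, Ezh2, Ezh1 and Bmi1. They are 10 of the 31053 genes in the deposited single-cell matrix of mouse LSK cells, and all 10 were among the 10646 genes with a UMI in at least 5% of the cells kept. DNA methyltransferases add methyl groups to cytosine, TET enzymes oxidize them, and the Polycomb complexes PRC2 and PRC1 methylate histone H3 at lysine 27 and ubiquitinate histone H2A, which keeps target genes silent. In blood stem cells several of these genes are known for effects on self-renewal, and Dnmt3a, Tet2 and Asxl1 are the mouse counterparts of the genes most often mutated in human clonal hematopoiesis.

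LSK cells (lineage-negative, Sca-1-positive, c-Kit-positive) are the bone marrow fraction that holds the stem cells and early progenitors. They were sorted from female C57BL/6JRj mice, 4 young (3 to 5 months) and 4 old (22 to 28 months), and the cells of each age were sequenced as 1 library by CITE-Seq, which reads transcripts and antibody tags from the same cell. The barcode suffix 1 or 2 marks the library, and neither the labels nor the methods pair a suffix with an age, so no age is compared here. Each age being a single library, age could not be tested, and comparisons of cells within the libraries are given for each library, with no test run. All intervals are 95% intervals for counting error only, since cells of a library are not replicates.

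Of 4688 cells, 4068 passed the filter of the study (under 10% mitochondrial UMIs, over 1500 genes), 1524 of suffix 1 with 27345371 UMIs and 2544 of suffix 2 with 44021962. No barcode was shared by the suffixes. The 3986 kept cells with tag values were split into 4 gates, with CD150 cut at the 75th and CD48 at the 25th percentile of each suffix, since CD150-positive CD48-negative cells are the LSK fraction richest in long-term stem cells. The CD150 cut lay at 40 tags in suffix 1 and 407 in suffix 2, and the CD48 cut at 224 and 42, so a gate is a rank within a library and not the same amount of surface protein. The CD150-high CD48-low gate held 555 cells (172 and 383 of suffix 1 and 2), the CD150-low CD48-low gate 454 (204 and 250), the CD150-high CD48-high gate 450 (209 and 241) and the CD150-low CD48-high gate 2527 (912 and 1615). The transcripts of the tagged proteins ran with the tags: Slamf1, which encodes CD150, stood at 50.0 CPM (UMIs of a gene per 1000000 UMIs of the same cells) in the first of these gates and 1.75 in the last, and Cd48 at 1.33 and 121. Both LSK markers and all 6 stem cell markers were detected in every gate. B and plasma cell markers summed to 110 CPM in the CD150-high CD48-low gate, 1191 in the CD150-low CD48-low gate, 96.3 in the CD150-high CD48-high gate and 4031 in the CD150-low CD48-high gate. In the CD150-low CD48-low gate the sum rested on suffix 1, with 2384 CPM there against 144 in suffix 2. In the CD150-low CD48-high gate it was 894 CPM in suffix 1 and 5825 in suffix 2. In all, 12 cells had over 10% immunoglobulin UMIs. Leaving out those cells, together with the deepest 2% of each library, changed no count of the 10 genes past the 1.5-fold limit used here.

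Mki67, a marker of dividing cells, had a UMI in 928 kept cells (22.8%). Such cells made up 2.88% of the CD150-high CD48-low gate, 3.96% of the CD150-low CD48-low gate, 23.3% of the CD150-high CD48-high gate and 31.1% of the CD150-low CD48-high gate. They were also deeper, with a median of 27068 UMIs against 13800 in cells without a Mki67 UMI.

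Dnmt1 and Ezh2 were the members that differed most between gates, and over both suffixes both were lowest in the CD150-high CD48-low cells. Dnmt1 is the maintenance methyltransferase, which copies methylation onto the new strand after DNA replication. In suffix 1 it stood at 43.5 CPM in the CD150-high CD48-low gate, 40.4 in the CD150-low CD48-low gate, 137 in the CD150-high CD48-high gate and 124 in the CD150-low CD48-high gate. In suffix 2 the same gates held 26.8, 41.7, 56.7 and 116 CPM. Both CD48-low gates thus lay below both CD48-high gates in each library. Over both suffixes the ratio of the CD150-high CD48-low to the CD150-low CD48-high gate was 0.267 (95% interval 0.233 to 0.304), and 0.350 and 0.230 within suffix 1 and 2.

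Ezh2, the main catalytic subunit of PRC2 in dividing cells, followed the same course. Its levels in the 4 gates, in the same order, were 64.4, 49.1, 160 and 144 CPM in suffix 1 and 22.6, 38.2, 57.8 and 133 in suffix 2. The gate ratio was 0.257 (0.226 to 0.291), with 0.447 in suffix 1 and 0.171 in suffix 2. For both genes every step of the order CD150-low CD48-high, CD150-high CD48-high, CD150-low CD48-low, CD150-high CD48-low had an interval that left out 1 over both suffixes, but in suffix 1 the first and the last step turned round for both genes, the CD150-high gate of each CD48 class being above the CD150-low one.

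**Figure D1:**
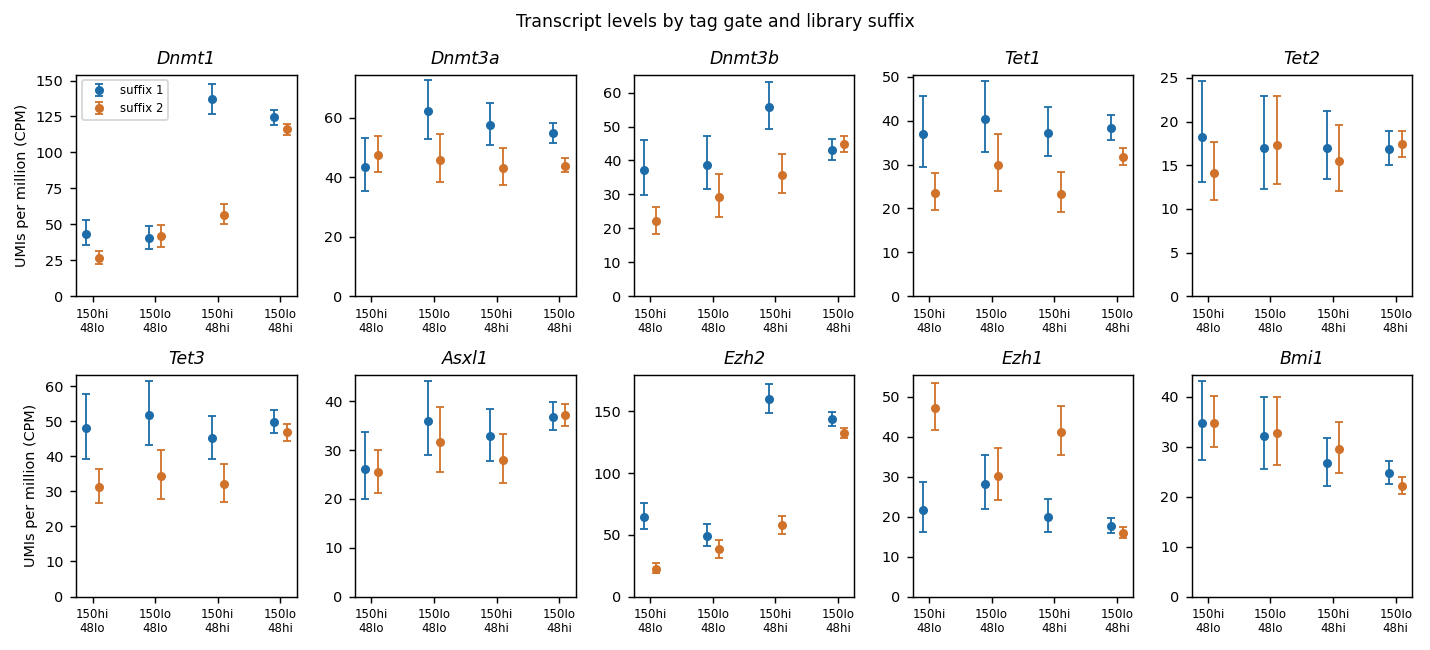
Level of each gene in CPM (vertical axis, from 0) in the 4 tag gates (horizontal axis; 150 and 48 stand for CD150 and CD48, hi and lo for high and low) in suffix 1 (blue) and suffix 2 (orange); bars are exact 95% Poisson intervals for counting error. Dnmt1 and Ezh2 are highest in CD48-high gates, Ezh1 lies at 47.3 and 41.2 CPM in the CD150-high gates of suffix 2 only, and Tet2 lies between 14.1 and 18.2 CPM in every group.

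Ezh1, the second catalytic subunit of PRC2 and the one known for its expression in resting cells, ran the other way. It stood at 21.8, 28.1, 19.98 and 17.7 CPM in suffix 1 and at 47.3, 30.2, 41.2 and 16.02 CPM in suffix 2, in the same order of gates. In suffix 1 the CD150-low CD48-low gate (28.1, 21.9 to 35.4) lay above the CD150-low CD48-high gate (17.7, 15.8 to 19.8), and in suffix 2 both CD150-high gates stood above the others. The gate ratio was 2.38 (2.08 to 2.73) over both suffixes, 1.23 (0.891 to 1.67) in suffix 1 and 2.95 (2.52 to 3.44) in suffix 2, so the pooled value rests on suffix 2 and the interval of suffix 1 holds 1.

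The Ezh1 share of the joint Ezh1 and Ezh2 UMIs changed from gate to gate. Over both suffixes it was 53.0% (exact interval 48.8 to 57.2) in the CD150-high CD48-low gate, 40.3% in the CD150-low CD48-low gate, 21.6% in the CD150-high CD48-high gate and 10.8% (10.1 to 11.6) in the CD150-low CD48-high gate. The share is a proportion of UMIs and was used to compare gates, not to rank the transcripts. By library, the share in the CD150-high CD48-low gate was 25.3% in suffix 1 and 67.7% in suffix 2, in the CD150-low CD48-low gate 36.4% and 44.2%, in the CD150-high CD48-high gate 11.1% and 41.6%, and in the CD150-low CD48-high gate 10.9% and 10.8%. In suffix 1 the CD150-low CD48-low gate thus had the highest share. The CD150-low CD48-high cells of both libraries were thus alike in this share, and the CD150-high gates were not. In cells without a Mki67 UMI, over both suffixes, the share was 59.2% in the CD150-high CD48-low gate and 45.2% in the CD150-low CD48-low gate. It was 40.9% there in the CD150-high CD48-high gate and 18.7% in the CD150-low CD48-high gate.

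**Figure D2:**
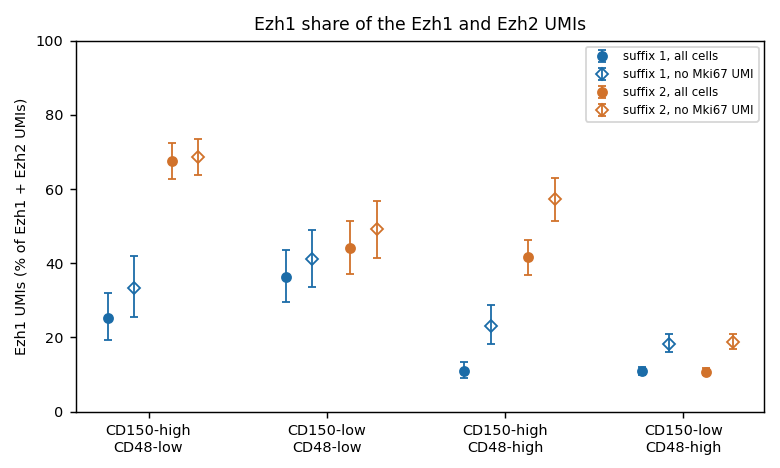
Ezh1 UMIs as a percent of Ezh1 plus Ezh2 UMIs (vertical axis) by tag gate (horizontal axis) for suffix 1 (blue) and suffix 2 (orange), in all cells (filled circles) and in cells without a Mki67 UMI (open diamonds); bars are exact 95% Clopper-Pearson intervals. The share reaches 67.7% in the CD150-high CD48-low gate of suffix 2 and is near 11% in the CD150-low CD48-high gate of both suffixes.

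Bmi1, a core subunit of PRC1 needed for stem cell self-renewal, had a small difference in the same direction in both libraries. It stood at 34.6, 32.1, 26.6 and 24.7 CPM in suffix 1 and 34.7, 32.6, 29.5 and 22.1 CPM in suffix 2, and the order of gates was identical in both. The gate ratio was 1.504 (1.31 to 1.72), with 1.40 in suffix 1 and 1.57 in suffix 2. Neighbouring gates in that order differed beyond the counting interval only at the last step, from CD150-high CD48-high to CD150-low CD48-high (1.21, 1.06 to 1.39). Bmi1 (GRCm38, chromosome 2, 18677018 to 18686629, plus strand) begins 787 bases after the end of Commd3 on the same strand, so reads running through from Commd3 could be counted near it. Commd3 had a gate ratio of 0.822 (0.760 to 0.888), with 0.905 (0.789 to 1.03) in suffix 1 and 0.788 (0.715 to 0.866) in suffix 2.

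Among the de novo methyltransferases, which set methylation on unmethylated DNA, Dnmt3a and Dnmt3b differed from each other. Dnmt3a stood at 43.5, 62.1, 57.6 and 54.8 CPM in suffix 1 and 47.5, 45.8, 43.2 and 43.9 CPM in suffix 2, and over both suffixes no neighbouring gates differed beyond their intervals. Its gate ratio was 0.967 (0.861 to 1.08), with 0.795 (0.639 to 0.979) in suffix 1 and 1.08 (0.940 to 1.24) in suffix 2, so the pooled value near 1 joins libraries on either side of it. Dnmt3b stood at 37.3, 38.8, 55.9 and 43.0 CPM in suffix 1 and 22.0, 29.2, 35.8 and 44.8 CPM in suffix 2. Its gate ratio was 0.602 (0.518 to 0.696), with 0.491 (interval below 1) in suffix 2 and 0.867 (0.683 to 1.09) in suffix 1, so the lower level in CD150-high CD48-low cells was seen beyond counting error in 1 library.

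The TET enzymes, which oxidize 5-methylcytosine, and Asxl1, the partner of the histone H2A deubiquitinase Bap1, had pooled gate ratios closer to 1 than those of Dnmt1 and Ezh2. Between the same gates Tet1 had a ratio of 0.805 (0.693 to 0.931), Tet2 of 0.889 (0.725 to 1.08), Tet3 of 0.757 (0.666 to 0.859) and Asxl1 of 0.693 (0.594 to 0.804). Within suffix 1 the ratios of Tet1, Tet2 and Tet3 were 0.960, 1.08 and 0.961, each with 1 inside its interval, and within suffix 2 they were 0.740, 0.808 and 0.669. The interval of Tet2, with 74 UMIs in the CD150-high CD48-low gate of suffix 2, held 1 there too. Asxl1 was alike in both libraries, at 0.711 and 0.685. Over both suffixes, for none of Tet1, Tet2, Tet3 and Asxl1 did neighbouring gates in the order of levels differ beyond their intervals. Over the 8 groups of gate and suffix, Tet1 ran from 23.4 to 40.4 CPM and Tet3 from 31.3 to 51.8. Tet2 had the fewest reads of the 10 genes, 1206 UMIs over all kept cells, and its level lay between 14.1 and 18.2 CPM in these groups.

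A gene was counted as different when its ratio passed 1.5-fold in the same direction in both suffixes. By that rule 2 of the 10 members (Dnmt1 and Ezh2) were lower in the CD150-high CD48-low than in the CD150-low CD48-high gate, where 9.02% of all tested genes were lower, and 0 were higher, where 9.02% of all genes were higher. Ezh1 and Bmi1 missed the rule in suffix 1. With a stricter cell filter, which kept 372 cells, 0 members passed, and the ratios of Dnmt1 and Ezh2 moved to 0.630 and 0.614. Over all genes 1836 passed in either direction with that filter, against 1920 with the filter of the study. With the filter of the study the median ratio over all tested genes was 0.966.

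Since the gates differ in their share of cells with a Mki67 UMI, the same comparison was made in cells without one. Dnmt1 stood at 37.3 against 82.9 CPM in suffix 1 and 25.2 against 74.9 in suffix 2, a ratio of 0.368 (0.317 to 0.424). Ezh2 stood at 44.2 against 83.6 CPM and 21.8 against 78.5, a ratio of 0.349 (0.301 to 0.404). Both remained the only members past the rule, again 2 lower and 0 higher, with 6.98% of all genes lower and 6.72% higher. Ezh1 kept a ratio of 2.21 (1.90 to 2.55), with 1.18 in suffix 1 and 2.63 in suffix 2, and Bmi1 one of 1.40 (1.20 to 1.62). In cells without a UMI of any of 15 mitosis genes, an alternative added after the data were seen, the ratios of Dnmt1 and Ezh2 were closer to 1, at 0.599 (0.494 to 0.722) and 0.472 (0.385 to 0.574). Ezh1 was at 2.08, Bmi1 at 1.34 and Dnmt3b at 0.495 there.

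The split by Mki67 over all kept cells separated the same genes. Dnmt1 stood at 182 CPM in cells with and 69.2 without a Mki67 UMI in suffix 1, and at 165 and 57.1 in suffix 2. The ratio was 2.79 (2.66 to 2.93). Ezh2 stood at 227 and 72.7 CPM in suffix 1 and 196 and 58.0 in suffix 2, with a ratio of 3.29 (3.14 to 3.44). These 2 members passed the rule as higher, beside 7.11% of all genes, and 0 as lower, beside 8.51%.

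Ezh1 was lower in cells with a Mki67 UMI, at 15.6 against 21.7 CPM in suffix 1 and 13.5 against 28.6 in suffix 2, a ratio of 0.551 (0.488 to 0.620). Its share of the joint Ezh1 and Ezh2 UMIs was 6.43% and 6.44% in the Mki67-positive cells of suffix 1 and 2, and 23.0% and 33.0% in the others. Asxl1 was higher with Mki67, with a ratio of 1.48 (1.37 to 1.60), 1.37 in suffix 1 and 1.55 in suffix 2. Dnmt3b (1.09, 1.01 to 1.17), Tet3 (1.002, 0.932 to 1.08) and Tet2 (0.956, 0.847 to 1.08) lay near 1. Dnmt3a (0.837, 0.778 to 0.900), Tet1 (0.801, 0.732 to 0.875) and Bmi1 (0.807, 0.729 to 0.892) were somewhat lower. Dnmt3a and Bmi1 were so beyond counting error in suffix 2 only, with ratios of 0.739 and 0.727 there against 0.954 and 0.924 in suffix 1. Within gates the direction was not uniform. In the CD150-high CD48-high gate Dnmt3a stood at 52.0 CPM with and 49.8 without Mki67, and Tet1 at 32.2 and 29.6. Bmi1 stood at 44.2 CPM (13 UMIs) and 34.3 in the CD150-high CD48-low gate. The intervals of each pair overlapped. Each of these genes was lower with Mki67 in its remaining gates. With gates weighted equally the ratios of Dnmt3a, Tet1 and Bmi1 were 0.869, 0.643 and 0.947.

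**Figure D3:**
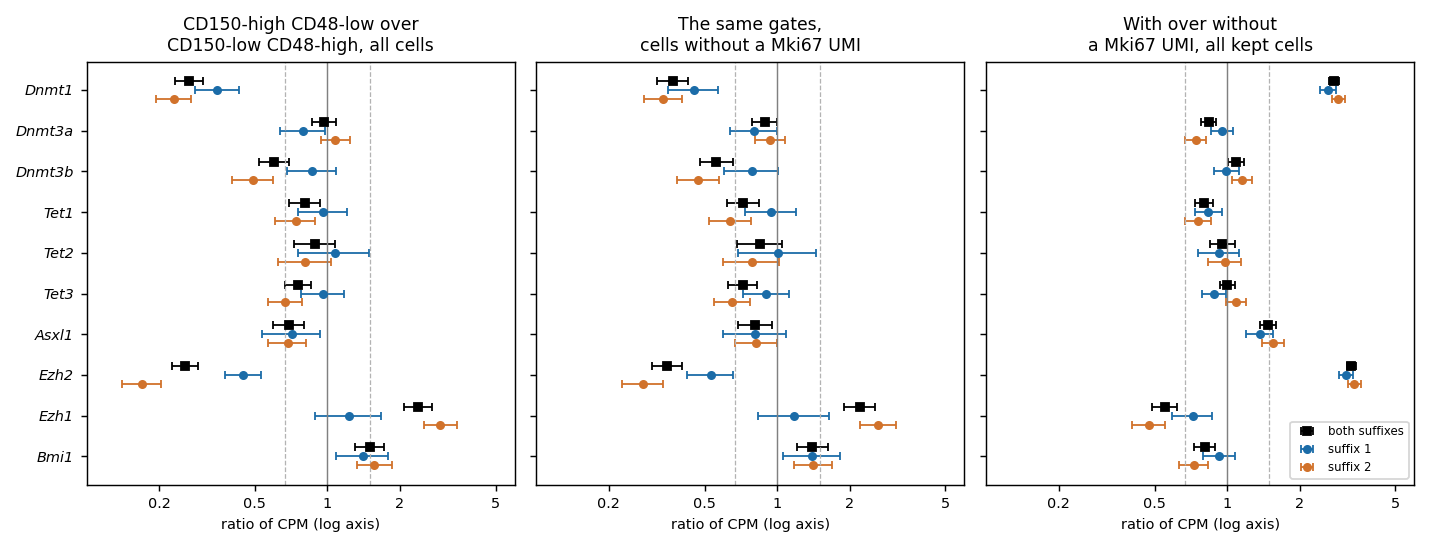
Ratio of CPM (horizontal log axis) for each gene between the CD150-high CD48-low and the CD150-low CD48-high gate in all cells (left) and in cells without a Mki67 UMI (middle), and between cells with and without a Mki67 UMI (right), for both suffixes (black squares), suffix 1 (blue) and suffix 2 (orange); bars are exact 95% intervals for counting error, the solid line is 1 and dashed lines are 1.5-fold. Dnmt1 and Ezh2 lie at 0.267 and 0.257 on the left and at 2.79 and 3.29 on the right, with Ezh1 on the opposite side in each panel.

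Within the gates the Mki67 split had the same direction for Dnmt1 and Ezh2, also in each library. Ezh2 was higher with Mki67 by a ratio of 7.39 (5.46 to 9.88) in the CD150-high CD48-low gate, 3.87 (2.73 to 5.38) in the CD150-low CD48-low gate, 4.00 (3.503 to 4.58) in the CD150-high CD48-high gate and 2.59 (2.46 to 2.72) in the CD150-low CD48-high gate. In the CD150-high CD48-low gate its level with Mki67 was 254 CPM in the 12 cells of suffix 1 and 77.4 in the 4 cells of suffix 2, and the ratios within the libraries were 5.75 (4.03 to 8.13) and 3.56 (1.28 to 7.98), both below the pooled one. Dnmt1 had ratios of 3.80, 3.25, 3.57 and 2.20 in the same order. Its level in the Mki67-positive cells was 109, 118, 186 and 172 CPM. Ezh1 had pooled ratios of 0.335, 0.208, 0.412 and 0.776, all with intervals below 1, but less so within libraries. In the CD150-high CD48-low gate of suffix 1 it stood at 18.5 CPM with and 22.1 without Mki67 (0.836, 0.218 to 2.29), and in suffix 2 the 4 cells with Mki67 held 0 Ezh1 UMIs. In the CD150-high CD48-high gate the ratios were 0.548 (0.344 to 0.857) in suffix 1 and 0.429 (0.244 to 0.707) in suffix 2, and in the CD150-low CD48-high gate 0.865 (0.684 to 1.09) and 0.726 (0.602 to 0.875). Both CD48-low gates held few cells with a Mki67 UMI, 16 and 18, and Ezh1 had 4 and 2 UMIs in them. Dnmt3b had pooled ratios of 2.14 (1.20 to 3.57) and 1.34 (1.09 to 1.63) in the CD150-high gates of low and high CD48. In the first of these it was at 1.57 (0.774 to 2.91) in suffix 1, with 12 UMIs in the cells with Mki67, and at 2.39 (0.641 to 6.30) in suffix 2, with 4, so the interval of each library held 1. In the second it was at 1.03 (0.802 to 1.32) in suffix 1, which held 77 of the 105 cells with Mki67, and at 1.60 (1.10 to 2.28) in suffix 2. In the CD150-low CD48-high gate, with 787 Mki67-positive cells, Dnmt3b was instead at 42.4 CPM with and 45.6 without Mki67. In the CD150-low CD48-low gate it was at 38.3 (12 UMIs) and 33.4.

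To set cells of unlike depth side by side, each cell was thinned to 9000 UMIs, leaving aside 243 cells below that depth. Among the others, 3074 had no Mki67 UMI, 185 had 1, 287 had 2 to 4 and 279 had 5 or more. Ezh2 stood at 61.8, 152, 219 and 240 CPM in these classes and Dnmt1 at 58.4, 135, 167 and 181. The intervals of the last 2 classes overlapped for both genes. Ezh1 stood at 27.4 CPM in the first class and at 12.01, 12.4 and 15.5 in the others, whose intervals overlapped, so its difference lay between no Mki67 UMI and any. In suffix 1 alone the intervals of all 4 classes of Ezh1 overlapped. Asxl1 stood at 29.1, 45.0, 43.4 and 49.8 CPM. The replication gene Mcm5 was highest in the middle classes, at 65.6, 184, 197 and 123 CPM, and the mitosis gene Top2a continued upward, at 36.9, 279, 617 and 1016.

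**Figure D4:**
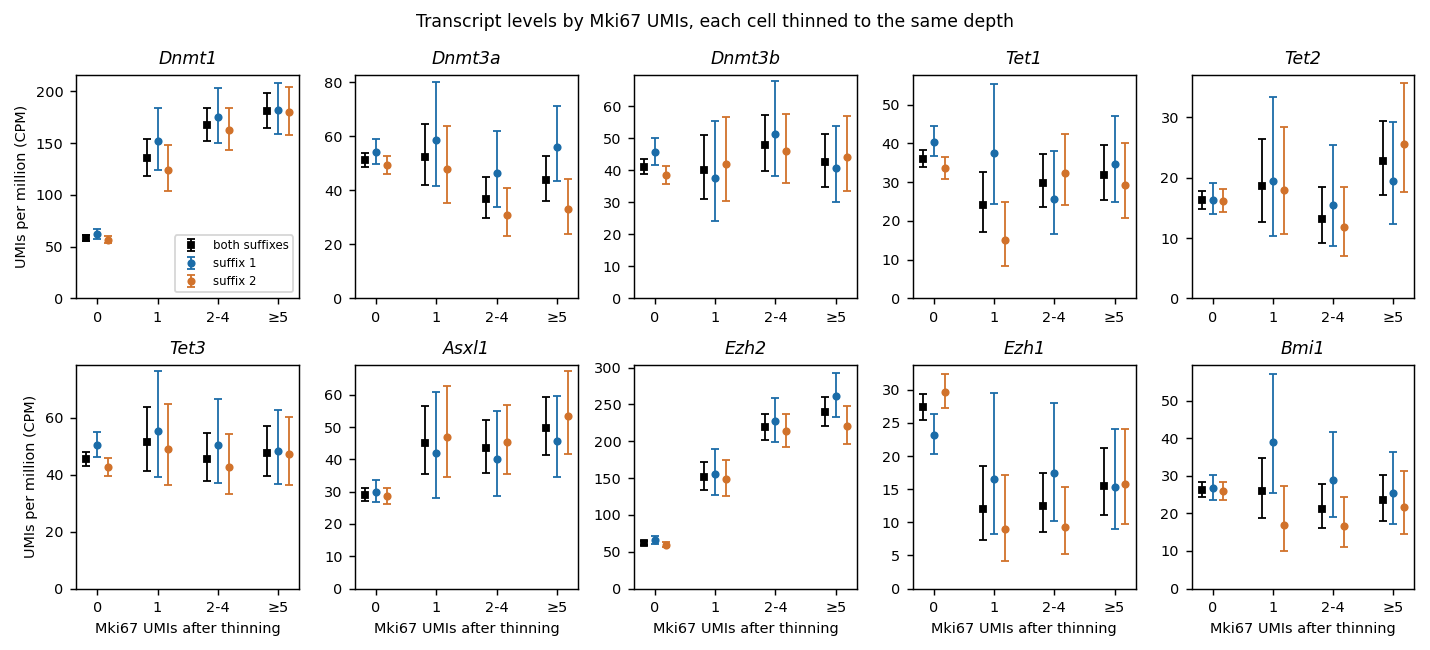
Level of each gene in CPM (vertical axis, from 0) by the number of Mki67 UMIs (horizontal axis) after each cell was thinned to the same depth, for both suffixes (black), suffix 1 (blue) and suffix 2 (orange); bars are exact 95% Poisson intervals for counting error. From no Mki67 UMI to 5 or more, Ezh2 goes from 61.8 to 240 CPM and Dnmt1 from 58.4 to 181, while Ezh1 goes from 27.4 to 15.5.

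For the shares of cells with a UMI, the thinned cells were split by Mki67 as counted before thinning, 911 with and 2914 without. After thinning, Ezh2 had a UMI in 77.8% of the cells with and 34.7% of the cells without Mki67. Dnmt1 had one in 70.8% and 33.3%, and Ezh1 in 11.6% and 21.1%. Without thinning the shares were 92.0% and 46.0% for Ezh2, 88.8% and 43.5% for Dnmt1, and 31.0% and 29.6% for Ezh1, so that over all kept cells the lower share of Ezh1 was seen at equal depth only. Within gates and without thinning, the Ezh1 share of cells with Mki67 against those without was 18.75% and 38.2% in the CD150-high CD48-low gate, 11.1% and 30.0% in the CD150-low CD48-low gate, 33.3% and 42.0% in the CD150-high CD48-high gate, and 31.5% and 24.7% in the CD150-low CD48-high gate, the one gate where it was higher. The sort holds no cell type known to lack these genes. Hba-a1, a globin gene of red cell precursors, had a UMI in 0.314% of all thinned cells.

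Over all kept cells, 0 of the 10 members passed 1.5-fold between the suffixes in either direction, beside 3.67% of all genes higher and 1.64% lower in suffix 2. The ratios of suffix 2 to suffix 1 ran from 0.785 for Tet1 to 1.21 for Ezh1. Within gates they were wider. Ezh1 had a ratio of 2.17 (1.59 to 3.02) in the CD150-high CD48-low gate and 2.06 (1.60 to 2.67) in the CD150-high CD48-high gate, and 1.08 (0.777 to 1.49) and 0.906 (0.784 to 1.05) in the CD150-low gates of low and high CD48. Ezh2 had ratios of 0.351 (0.273 to 0.450) and 0.361 (0.312 to 0.417) in the CD150-high gates and of 0.778 and 0.921 in the others. Dnmt1 was at 0.615 and 0.414 in the CD150-high gates, Dnmt3b at 0.591 and 0.640, Tet1 at 0.639 and 0.629 and Tet3 at 0.653 and 0.713, each with an interval below 1. Dnmt3a was at 1.09 (0.860 to 1.39) and 0.750 (0.620 to 0.906), and the intervals of Tet2, Asxl1 and Bmi1 held 1 in both CD150-high gates.

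Cell composition moved with these values. A Mki67 UMI was found in 6.98% and 1.04% of the CD150-high CD48-low cells of suffix 1 and 2, and in 36.8% and 11.6% of the CD150-high CD48-high cells. Slamf1 stood at 16.9 and 64.2 CPM in the CD150-high CD48-low gate of suffix 1 and 2, and Flt3, a receptor of multipotent progenitors, at 13.3 and 2.09. The 3 multipotent progenitor markers summed to 216 and 43.9 CPM in that gate and to 457 and 149 CPM in the CD150-high CD48-high gate, and the 3 megakaryocyte markers in the latter to 69.0 and 293.5 CPM. Their part in the differences was not tested. In the CD150-high CD48-low cells without a Mki67 UMI, Ezh1 kept a ratio of 2.17 (1.58 to 3.05), Ezh2 was at 0.493 (0.370 to 0.657) and Dnmt1 at 0.676 (0.506 to 0.909). With the tag cuts set over both suffixes together, only 33 cells of suffix 1 lay in that gate against 614 of suffix 2, with Ezh1 at 32.9 CPM (17.5 to 56.3) and 46.0 (41.5 to 50.8), so with a common cut, and with 13 Ezh1 UMIs in the cells of suffix 1, a difference was not detectable at this depth. Ezh2 was then at 63.3 CPM (41.0 to 93.4) and 28.7 (25.2 to 32.6). Dnmt1 was at 27.9 CPM (13.9 to 49.8, 11 UMIs) and 32.3 (28.6 to 36.3), so its lower level in suffix 2 was not seen with the common cut. For Dnmt3b, Tet1 and Tet3 suffix 1 remained the higher, but with intervals that overlapped those of suffix 2. The part of gate composition, library and age in these differences cannot be told apart.

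**Figure D5:**
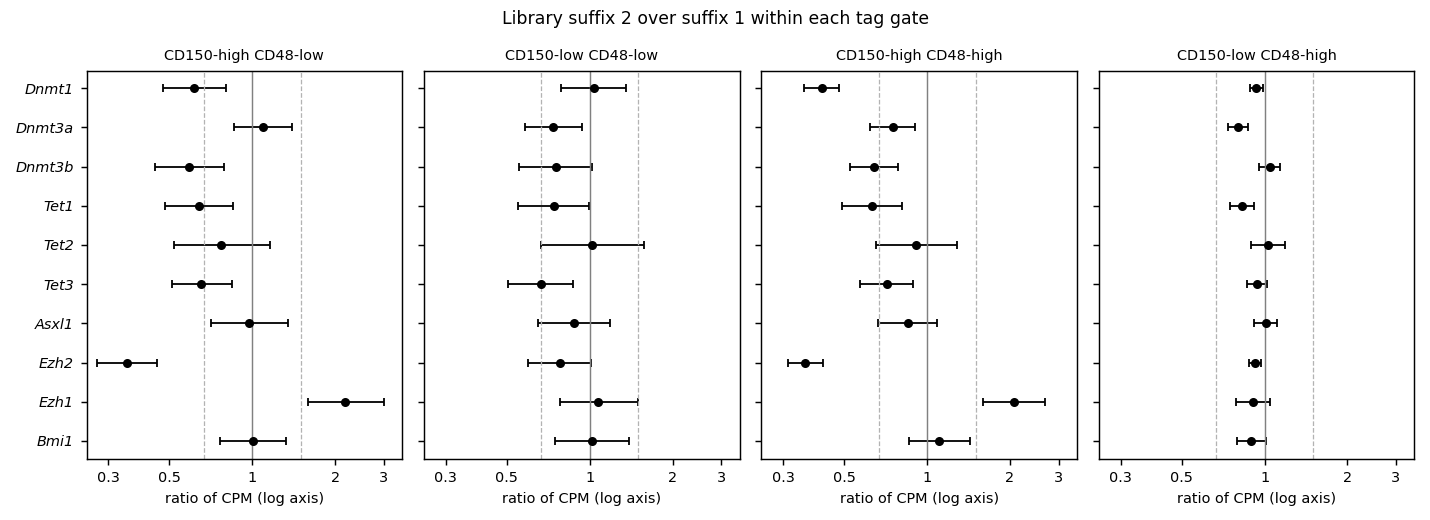
Ratio of CPM in suffix 2 over suffix 1 (horizontal log axis) for each gene within each tag gate; bars are exact 95% intervals for counting error, the solid line is 1 and dashed lines are 1.5-fold. Ezh1 lies at 2.17 and 2.06 and Ezh2 at 0.351 and 0.361 in the CD150-high gates, while the points of the CD150-low CD48-high gate lie between 0.802 and 1.04.

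The partners of the members were followed through lists of their complexes, whose counts are read beside the shares of all genes given above (9.02% lower and 9.02% higher between gates, 7.11% higher and 8.51% lower with Mki67). The counts include the members Dnmt1 and Ezh2, and Pcna is counted in both the methyltransferase and the replication list. The PRC1, TET and methyl-CpG reader lists had at most 3 genes past the rule in either direction, and the values of these genes are descriptions of single genes. Of 10 tested genes of the methyltransferase machinery, 4 were lower in the CD150-high CD48-low gate by the 1.5-fold rule (Dnmt1, Uhrf1, Hells and Pcna) and 0 higher, with a median ratio of 0.582. Uhrf1, which brings Dnmt1 to hemimethylated DNA, had a ratio of 0.123 (0.0956 to 0.156), with 0.277 in suffix 1 and 0.0526 in suffix 2. Hells, a chromatin remodeler needed for methylation, had one of 0.195, with 0.409 and 0.0940, so that both pooled values are more than 2 times lower than those of suffix 1 alone. Between cells with and without Mki67, 5 of the 10 were higher, Uhrf1 by 4.26 and Hells by 3.06. The list of 16 replication genes moved as a block, 16 of 16 lower in the gate comparison (median ratio 0.241) and 16 of 16 higher with Mki67 (2.56), and so did 15 of 15 mitosis genes (0.105 and 42.7). By library the median gate ratio was 0.392 in suffix 1 and 0.182 in suffix 2 for the replication genes and 0.270 and 0.0245 for the mitosis genes.

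Of 12 tested PRC2 genes, 4 were lower in the CD150-high CD48-low gate and 1 higher, with a median of 0.628. Beside Ezh2, the core subunit Eed had a ratio of 0.523, and the accessory subunit Epop one of 0.464, and Suz12 also passed. Phf1, an accessory subunit that binds methylated H3 lysine 36, was the one higher (2.01, 1.65 to 2.44). With Mki67, 4 were higher (Ezh2, Phf19 by 2.78, Suz12 by 1.96 and Rbbp4) and Phf1 was lower (0.424). Of 22 PRC1 genes, 3 were higher in the CD150-high CD48-low gate, the chromobox readers Cbx7 (2.26) and Cbx6 (1.95) and the Bmi1 homolog Pcgf2 (2.19), and Cbx2 was lower (0.404, with 0.628 in suffix 1 and 0.293 in suffix 2). The median of the list was 0.978. Cbx7 was also the one PRC1 gene lower with Mki67 (0.528), and 0 were higher.

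Of 13 tested genes around TET enzymes and demethylation, 1 was higher and 2 lower in the CD150-high CD48-low gate. Gadd45g, a stress-response gene, stood at 57.9 against 4.48 CPM there, a pooled ratio of 12.9 (10.96 to 15.3). Within suffix 1 and 2 its ratio was 8.48 and 12.8, both below the pooled one, and over all kept cells it was 4.34-fold higher in suffix 2. Idh2, which makes the TET cofactor, had a gate ratio of 0.406 and the glycosylase Tdg one of 0.514. With Mki67, 0 were higher and 3 lower (Gadd45g, Ogt and Idh1). Of 8 readers of methylated CpG, Zbtb4 was higher (1.98) and Mbd4 lower (0.612) in the gate comparison, and each was on the other side with Mki67 (0.351 and 1.63). Of 8 tested genes around the deubiquitinase of Asxl1, 0 passed in either comparison, with medians of 0.898 and 1.07. Of the 2 H3K27 demethylases, 0 passed between gates and Kdm6b was lower with Mki67 (0.489).

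Among cell cycle inhibitors known as Polycomb targets, Cdkn1c (p57) was higher in the CD150-high CD48-low gate, at 88.6 against 11.3 CPM, a ratio of 7.81 (6.96 to 8.76), and Cdkn1a (p21) lower, at 0.594. Cdkn2a, the best known target of Bmi1 and Ezh2, had 7 UMIs in all kept cells and was not compared. Between suffixes, 3 of the 4 tested genes of this list were higher in suffix 2 over all kept cells, beside 3.67% of all genes: Cdkn1a by 2.11, Cdkn2c by 1.93 and Cdkn1c by 1.81. Of the complex and pathway lists, Gadd45g and Pcgf2 (1.62) were the other genes called there.

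Over 12 groups of gate, suffix and Mki67 with at least 20 cells each, the gene whose level ran most like that of Dnmt1 was Ezh2 (Pearson r 0.995 of log2 CPM with 10 added), followed by Ssrp1 and Ptbp1. For Ezh2 the closest genes were Slbp (0.997), Usp1 and Atad5. For Ezh1 they were Airn (0.963), Zrsr1 and S1pr1, and for Bmi1 Nat9 (0.949), Ext2 and Plpp3. The closest gene to Asxl1 was Kif23 (0.966), to Dnmt3a Zfp637 (0.878), to Dnmt3b Vps36 (0.938), to Tet1 Cat (0.952), to Tet2 Elk3 (0.920) and to Tet3 Cnot8 (0.946). Ezh1 had r of -0.877 with Ezh2 and 0.698 with Bmi1. The groups share libraries and differ in depth. Over the 8 groups of gate and suffix alone, 2 of the 3 genes stayed for Ezh2 and for Tet3, and 0 for each of the other members.

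Because Dnmt1 and Ezh2 moved with the replication genes, the RefSeq promoter windows (GRCm38.p6, 250 bases before to 50 after a transcript start) were searched on both strands for the letters of E2F-type motifs, known from S-phase genes: TTTCCCGC, TTTCGCGC, TTTGCCGC and TTTGGCGC. All 10 members had a window, 14 in all, and 2 windows held a match, 1 of Dnmt1 and 1 of Ezh2, beside 2.27% of all 32851 windows. The other members had no match in these windows. The matches are shown in capitals within their surroundings, read on the strand of the gene, for Dnmt1 at chr9:20952824-20952853 (minus strand, match from position -219 of the start, read as the reverse complement of TTTCGCGC, in the untranslated first exon of a longer GENCODE transcript) and for Ezh2 at chr6:47595009-47595038 (minus strand, match from position 4 after the start, in the first exon).
Dnmt1: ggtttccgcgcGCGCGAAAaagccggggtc
Ezh2: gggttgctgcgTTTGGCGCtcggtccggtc
The Dnmt1 window held a further match, TTTGGCGC, from position 34. In the lists, 3 of 11 genes of the methyltransferase machinery with a window (Dnmt1, Uhrf1 and Hells), 3 of 12 of PRC2 (Ezh2, Suz12 and Phf19), 5 of 14 replication genes, 1 of 13 mitosis genes and 1 of 5 Polycomb target loci (Cdkn2a) held a match, beside 2.605% of all 27025 genes with a window. The lists of PRC1 (0 of 17), TET and demethylation (0 of 13), methyl-CpG readers (0 of 5), the deubiquitinase (0 of 7) and the H3K27 demethylases (0 of 1) held none. These are matches of letters, and binding was not measured.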

How the data were processed

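The authors counted UMIs with Cell Ranger 3.1.0 and combined the libraries with its aggregation step, which they describe as a normalization (mode not given in the sources used here), so the deposited UMI counts follow that step and sequencing depth prior to it is not known. The submitters' processing notes name the builds mm10 and GRCm38. The tag file holds log10 of the tag counts that the authors deposited, which were returned to tag counts. UMIs were summed over the cells of a group and divided by the group's total. Intervals are exact Poisson for levels, conditional binomial for ratios and Clopper-Pearson for shares (Python 3.11.15, scipy 1.17.1). The calculation was tested on simulated data. No doublet caller was run, since the methods name none, and the deepest 2% of cells were left out as an alternative. The 10 genes, the lists and the comparisons were chosen with earlier results of these data known. Genes named are the members, the genes of each list past 1.5-fold in both suffixes (at most 3 per direction with values), the genes closest in pattern, and Commd3, Mki67, Top2a, Cd34 (used in the progenitor marker sum only), Flt3, Slamf1 and Cd48. Hba-a1 and Cdkn2a are named outside that rule. Gene positions are from GENCODE M21, and TMM scaling used edgeR 4.0.16 as an alternative. The 4 overlapping antisense genes counted here had at most 33 UMIs each (Dnmt3aos, Dnmt3bos, Gm26625, Gm42567). Other overlapping genes were not counted. On the same strand these were Mir7081 for Dnmt1, Gm48353 and Gm26479 for Tet1, and Mir6374 and 5430434F05Rik for Tet3. On the other strand they were B230319C09Rik, 2500004C02Rik and Gm44282.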

Additional observations from a re-analysis of the deposited data

How the results depend on the processing

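Of 349 member ratios recomputed under alternatives, 262 stayed within the spread, 82 moved beyond it and 5 whose interval had left out 1 turned to its other side. The 5 were Dnmt3b with a stricter cell filter (1.11 between gates, 0.9996 for Mki67, 1.25 between suffixes), Dnmt3b for Mki67 in suffix 1 alone (0.994), and Ezh1 between suffixes with that filter (0.932). Counting also ratios whose interval held 1, 21 lay on the other side of 1 from the value reported, among them Dnmt3a (1.22) and Tet2 (1.35) between gates with the stricter filter. The stricter filter (under 5% mitochondrial UMIs, over 2500 genes) kept 372 cells, 57 of them CD150-high CD48-low, and under it 0 members passed the rule between gates and 1 between suffixes, and the gate ratios of Dnmt1 and Ezh2 moved from 0.267 and 0.257 to 0.630 and 0.614; the cause was not tested. In suffix 2 alone, where a gene need pass in 1 library only, 5 members passed between gates and 4 for Mki67. With gates weighted equally, 1 member passed between suffixes. By the mean of per-cell CPM, 3 members passed for Mki67, beside 1682 of all genes. With tag percentiles over both suffixes 3 passed between gates, beside 2261 of all genes. As reported, 2 members passed in each. Over all genes, 1920 passed between gates, 1663 for Mki67 and 566 between suffixes. Between gates this became 1836 with the stricter filter, 3542 in suffix 2 alone, 1231 without cells with a mitosis UMI, 932 at a fold of 2 and 2935 with genes in at least 1% of cells. For Mki67 it became 2748 in suffix 2 alone, 639 with gates weighted equally and 689 at a fold of 2. Between suffixes it became 1223 with the stricter filter, 1182 with gates weighted equally, 206 at a fold of 2 and 1343 with genes in at least 1% of cells. TMM scaling shifted log2 ratios by -0.06, 0.07 and 0.05. Tet2 had no Mki67 ratio over equally weighted gates, for want of UMIs in 18 cells. No paired analysis of age was possible because each age has 1 library and the suffixes carry no age; gates and Mki67 classes were compared within each library, and no fit with the library as a block was run.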
